A study of Mus musculus with 12 samples.

Results

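White adipose tissue (WAT) and liver were compared across 6 of the 12 RNA-seq libraries of the series, 3 from each organ. The libraries were taken by their organ label, but the comparison itself was chosen with earlier results of these data known. Each organ was represented by 1 library from each of 3 arms. The mice were male, on the C57BL/6J genetic background and 17 wk old at collection, and no genetic modification was described. NCD-veh mice received normal chow diet and vehicle, HFD-veh mice received high fat diet (HFD) from 8 wk of age and vehicle, and HFD-ncls mice received the same HFD and narciclasine (ncls), a plant alkaloid, from 10 wk of age. Vehicle and ncls were given by oral gavage. How many mice went into each library and which fat depot was sampled were not given in the sources used here. Values are FPKM, the fragments aligned to a gene scaled to the length of its exons and to the depth of the library, so that levels of different genes can be set beside each other. Wherever 3 values are listed for an organ or within arms, they are in the order NCD-veh, HFD-veh, HFD-ncls.

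Both organs make triglyceride, but they handle it differently. Adipocytes take up fatty acids released from circulating lipoproteins by lipoprotein lipase, store them as triglyceride in 1 large droplet coated by perilipins, and release them again through the lipases ATGL, HSL and MGL. Hepatocytes make fatty acids from carbohydrate, oxidize them, turn them into ketone bodies, and export triglyceride on apolipoprotein B particles. Each organ also has its own stroma and its own resident macrophages, which in liver are the Kupffer cells.

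The 3 libraries of an organ differ in diet and treatment, so they are not replicates of 1 condition. The spread used by every test below therefore holds diet, treatment, animal and library together, and the p-values measure only the spread between these samples. Differences are WAT minus liver on log2(FPKM + 0.1), the mean of 3 libraries against the mean of 3, with the standard error (SE) and the Benjamini-Hochberg adjusted p of limma over all genes tested. Genes that reached 1 FPKM in at least 1 library were tested, so that a gene near 0 in 1 organ was tested only for its level in the other, and counts over such genes are in part set by this filter. A gene was called when this p was under 0.05 and the difference at least 2-fold. An exact permutation test of 3 against 3 libraries cannot go below a p of 0.1 and was not used. Since FPKM values hold no counts, depth was estimated from the steps of single fragments among low values, at about 19600000 to 22200000 fragments in WAT and 24100000 to 25100000 in liver. At such depths, 0.1 FPKM of a 2-kb transcript is about 4 to 5 fragments. In bulk tissue, fewer cells of a type and less RNA per cell cannot be told apart.

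The labelled tissue matched the defining genes. All 41 hepatocyte markers tested were called higher in liver, and 17 of 18 adipocyte markers were called higher in WAT, the exception being Thrsp. Adipoq, Lep and Retn, the genes of the hormones adiponectin, leptin and resistin, were listed at 0 in all 3 liver libraries. Both marker lists hold genes for which the organs are known to differ, so these counts check the labels and are not a result. Some libraries held low levels of markers of another organ. Most hepatocyte markers were near 0 in NCD-veh WAT, higher in HFD-veh WAT and highest in HFD-ncls WAT, as described at the end. Among those that did not follow this order were Trf, Cyp2e1, Khk and Itih4. In WAT Khk had 6.26, 3.30 and 4.72 FPKM and Itih4 had 1.06, 0.751 and 1.72. Trf and Cyp2e1 were at 485 to 1204 and 409 to 1053 FPKM in WAT and highest in NCD-veh WAT. For these 2 genes the list does not mark liver alone. All 15 skeletal muscle markers were highest in the HFD-veh library among the liver libraries, with a sum of 83.6 FPKM against 2.27 in NCD-veh and 3.26 in HFD-ncls liver. In WAT the same markers summed to 72.1, 95.6 and 82.9 FPKM, of which Acta1 alone gave 30.7, 55.2 and 40.2. The sums thus hide different members. Ckm was at 0.433, 0.186 and 0.409 FPKM in WAT, below the 10.3 of HFD-veh liver. Casq1, at 0.341, 2.16 and 2.87 in WAT, was not below the 1.27 of HFD-veh liver in every WAT library. Of the 12 muscle markers tested, 2 (16.7%) were called higher in WAT (Acta1 and Myl1), against 50.5% of all genes tested. None was called higher in liver, against 12.0%.

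Of 13120 genes tested, 6624 (50.5%) were called higher in WAT and 1569 (12.0%) higher in liver. The median difference over all of them was 1.03, so that a typical gene was about 2-fold higher in WAT. The 100 most abundant genes held 29.2% to 34.5% of the summed FPKM in WAT and 52.7% to 56.5% in liver. Rescaling each library by its median ratio to the others lowered the median by 0.70 to 0.33, by less for genes near 0 in an organ, and gave 4419 genes (33.7%) called higher in WAT and 2386 (18.2%) higher in liver. Differences of this size are therefore read against the median of all genes. Shares called within the lists below are likewise read against the 50.5% and 12.0% of all genes. At 64-fold or more, 293 genes (2.23%) were called higher in WAT and 404 (3.08%) higher in liver. The genes were higher in WAT in all 3 arms in 70.4% of cases and higher in liver in all 3 arms in 18.8%.

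The 5 genes with the largest difference toward WAT were Adipoq, Retn, Lep, Sncg and Retnla. Adipoq (mm9 chromosome 16, 23146609 to 23158101) had 2849, 1692 and 1599.8 FPKM in WAT, and Retn had 1551, 963 and 967. Lep, which signals the size of the fat store, had 300.2, 1199 and 1062 FPKM, with both HFD libraries above NCD-veh. Sncg, gamma-synuclein, had 1739, 1584 and 1493 FPKM in WAT and 0.0740, 0.232 and 0.370 in liver. Retnla, a resistin-like gene of alternatively activated macrophages, had 867, 875 and 774 FPKM in WAT and 0.0991, 0.103 and 0 in liver. None of these 5 had as much as 1 FPKM in any liver library.

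On the liver side the 5 largest differences belonged to Mup20, Apoa1, Mup13, Hamp and LOC100048884. Mup20 and Mup13 are major urinary protein genes, a family of near-identical copies among which reads can be split, so single values in it are uncertain, and the identity of LOC100048884 is given in the file only by this symbol. Apoa1, the main protein of high-density lipoprotein, had 11392, 9999 and 13444 FPKM in liver and 0.0561, 7.44 and 23.8 in WAT. Hamp, the iron hormone hepcidin, had 3601, 3110.3 and 4409.9 FPKM in liver and 0, 1.42 and 7.28 in WAT. In WAT all 5 were lowest in NCD-veh and highest in HFD-ncls, and their SE was large. For Hamp the difference was -11.79 ± 1.37, adjusted p = 0.000132, and within arms it was -15.14, -11.00 and -9.22.

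**Figure D1:**
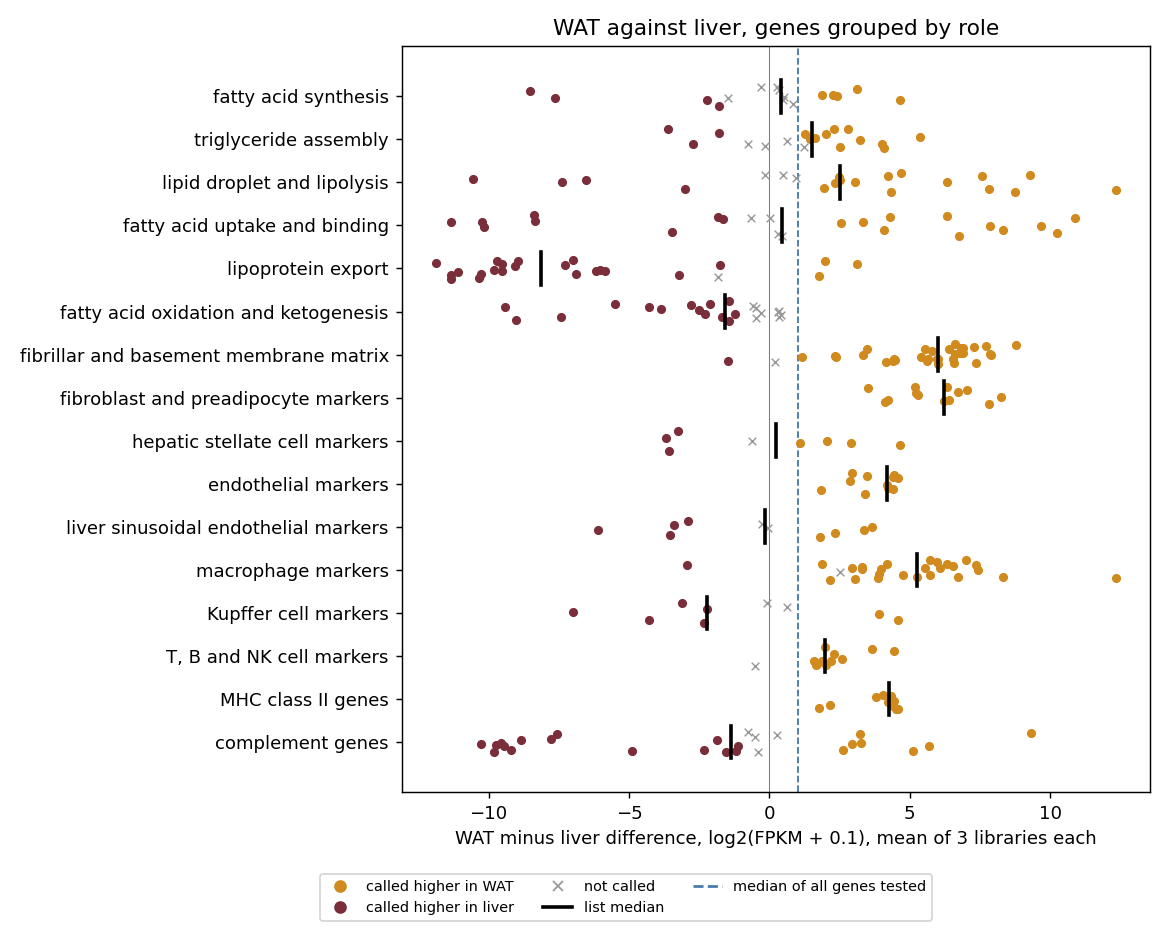
Differences between WAT and liver for the genes of 16 lists, as WAT minus liver on log2(FPKM + 0.1), with 1 point per gene, crosses for genes not called, black bars for list medians and a dashed line for the median of all genes tested (1.03). Lipoprotein export lay furthest to the liver side (median -8.12), while matrix, fibroblast, endothelial and macrophage genes lay on the WAT side, and the medians of fatty acid synthesis, fatty acid uptake and stellate cell genes turned negative after rescaling.

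Promoters of some genes at least 64-fold apart are shown because genes that move together between organs often share binding sites for factors of 1 organ. All those shown carry a match, which most genes this far apart did not, as given below, so they are not typical of their groups. HNF1 is a homeodomain factor of hepatocytes that binds the core GTTAAT, and C/EBP factors, which act in both organs, bind forms of TTNNGCAA. Sequences are from RefSeq (GRCm38.p6), are the 150 bases before the start site, read 5′ to 3′ on the strand of the gene, and carry the match on either strand in capitals. The liver genes are Fabp1 (chr6:71199729-71199878 (plus strand)), the liver fatty acid binding protein, and the fibrinogen chain genes Fga (chr3:83026003-83026152 (plus strand)) and Fgb (chr3:83049864-83050013 (minus strand)). The WAT genes are Plin1 (chr7:79732777-79732926 (minus strand)) and Lep (chr6:29060071-29060220 (plus strand)).
Fabp1: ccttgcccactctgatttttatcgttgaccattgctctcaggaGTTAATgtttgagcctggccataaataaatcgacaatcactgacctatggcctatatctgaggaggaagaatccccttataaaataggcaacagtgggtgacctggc
Fga: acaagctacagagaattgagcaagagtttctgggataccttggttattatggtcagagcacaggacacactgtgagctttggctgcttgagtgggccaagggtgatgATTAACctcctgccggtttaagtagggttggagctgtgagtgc
Fgb: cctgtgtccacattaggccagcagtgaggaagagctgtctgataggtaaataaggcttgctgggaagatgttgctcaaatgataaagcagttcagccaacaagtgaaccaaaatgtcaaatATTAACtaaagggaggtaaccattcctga
Plin1: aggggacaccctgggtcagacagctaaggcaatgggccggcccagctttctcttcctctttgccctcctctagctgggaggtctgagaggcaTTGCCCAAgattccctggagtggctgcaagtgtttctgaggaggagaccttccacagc
Lep: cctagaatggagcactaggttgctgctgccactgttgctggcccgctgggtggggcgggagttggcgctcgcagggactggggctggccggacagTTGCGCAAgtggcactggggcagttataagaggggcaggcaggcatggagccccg

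The HNF1 core began 107 bases before the start of Fabp1, 43 before Fga and 29 before Fgb, and the C/EBP match began 58 bases before Plin1 and 55 before Lep. In the 250 bases before the start, GTTAAT on either strand was found for 7.49% of all 27025 promoter genes and 5.28% of the 9688 genes tested that had a promoter. It was found for 21.4% of the 295 such genes at least 64-fold higher in liver, and for 6.03% of the 199 at least 64-fold higher in WAT. The shares of other motifs follow in the same order of all promoter genes, genes tested, liver genes and WAT genes. For TTNNGCAA they were 10.8%, 9.43%, 21.7% and 14.6%. For the TATA box TATAAA they were 14.3%, 8.68%, 23.4% and 14.1%, so that both groups lay above the genes tested. A longer HNF1 site that contains this core was found for 0.374%, 0.32%, 5.42% and 0, and the HNF4 core CAAAGTCCA for 0.451%, 0.516%, 4.41% and 0.503%. For the E box CACGTG the shares were 6.86%, 9.82%, 3.73% and 7.54%, with both groups below the genes tested, and for CCAAT 37.5%, 40.3%, 38.0% and 30.2%. The other 5 motifs searched (the C/EBP palindrome TTGCGCAA, which is a form of TTNNGCAA, the sterol response element TCACNCCAC, the site TCAAGGTCA of estrogen-related receptors, and strict and relaxed direct repeats of AGGTCA with 1 base between) were found for at most 2.03% of the genes of either organ. These shares describe letters in the promoter window, and no test was made on them. The 12 motifs were chosen with the gene groups known.

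Genes of fatty acid synthesis were divided between the organs, and the order of the organs changed from arm to arm. Of 16 genes tested, 5 (31.25%) were called higher in WAT, against 50.5% of all genes, and 4 (25%) higher in liver, against 12.0%. Another 7 were not called, and the median of 0.42 became -0.30 after rescaling. Within arms the median was 2.16, -0.21 and -0.71. In the NCD-veh libraries, most genes of the pathway were thus at a higher level in WAT, and in both HFD arms this was no longer so. This rests on 1 library per organ and arm, and without NCD-veh liver the median over the other libraries was -0.42. Other genes that set NCD-veh liver apart are given at the end.

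Fasn, fatty acid synthase (mm9 chromosome 11, 120667254 to 120685492), had 453, 432 and 412 FPKM in WAT and 11.3, 65.2 and 162 in liver. Its level in WAT varied little, its level in liver differed widely between the arms, and all WAT values were above all liver values (3.13 ± 0.85, adjusted p = 0.0105). The call was lost when HFD-ncls WAT and HFD-veh liver were both left out, at a difference of 3.36. Within arms the difference was 5.31, 2.73 and 1.34. Acaca, the acetyl-CoA carboxylase of the cytosol, had 77.8, 33.5 and 31 FPKM in WAT and 4.0, 11 and 11.6 in liver (2.42 ± 0.50, adjusted p = 0.00274). Scd1, the stearoyl-CoA desaturase that introduces the double bond of oleate, had 6275, 4356 and 3929.9 in WAT and 561, 1271 and 1333 in liver, and Scd2 had 106, 231 and 197 and 3.88, 10.3 and 7.42. Both desaturases were called higher in WAT, by 2.27 and 4.64. Me1, malic enzyme, which supplies NADPH, was the fifth gene called higher in WAT (1.86).

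For other genes of the pathway the order of the organs changed. Thrsp (mm9 chromosome 7, 104561448 to 104566240), a protein of lipogenic cells, had 531, 418 and 525 FPKM in WAT and 27.4, 887 and 1570.2 in liver. Liver was far below WAT in NCD-veh and above it in both HFD arms, so that the organs overlapped and no difference was called (0.54 ± 1.38, adjusted p = 0.73). Acly, ATP citrate lyase, had 104, 88.7 and 90.2 FPKM in WAT and 18.3, 79.7 and 102 in liver. Srebf1, whose product SREBP1 activates lipogenic genes, had 61.9, 65.9 and 61.7 in WAT and 13.3, 69.9 and 95 in liver. Elovl6, the elongase of palmitate, had 7.96, 6.56 and 6.86 in WAT and 5.20, 37.5 and 40.7 in liver, with the organs close in NCD-veh and liver above in both HFD arms. None of the 3 was called. Acss2, Acacb and Slc25a1, which supply or use acetyl-CoA and citrate, were also not called, at -0.29, 0.28 and 0.35.

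Pklr, Mlxipl and Elovl5 were among the genes called higher in liver. Pklr, the liver form of pyruvate kinase, had 27.4, 119 and 159 FPKM in liver and 0, 0.0733 and 0.483 in WAT. It was lowest in NCD-veh among the liver libraries. Mlxipl, which encodes the carbohydrate-sensing factor ChREBP, had 61.1, 60.6 and 74.6 in liver and 16.7, 16.4 and 24 in WAT (-1.79 ± 0.18, adjusted p = 6.52e-05). Elovl5, an elongase of polyunsaturated fatty acids, had 105, 249 and 173 in liver and 29.8, 38.9 and 38.8 in WAT.

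**Figure D2:**
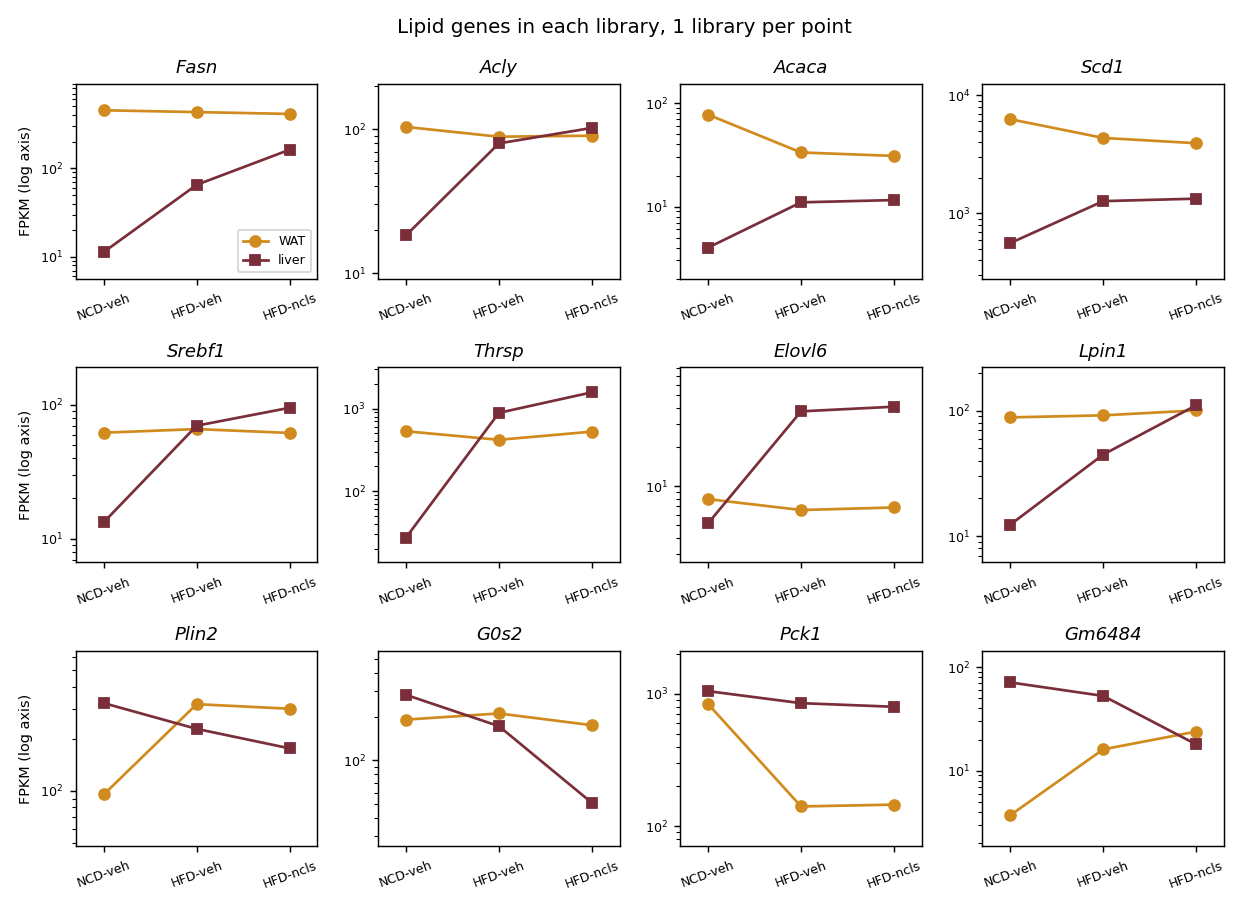
FPKM (log axis) of 12 lipid genes in the 3 WAT (circles) and 3 liver libraries (squares), with 1 library per point and lines that join the arms of an organ. Fasn, Acly, Srebf1, Thrsp, Elovl6 and Lpin1 were lowest in NCD-veh among the liver libraries and varied less in WAT, while Plin2 and Gm6484 were highest in NCD-veh among the liver libraries and lowest in NCD-veh among the WAT libraries.

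Across all 13120 genes, 45 (0.343%) were at least 2-fold higher in WAT in 1 arm and at least 2-fold higher in liver in another. Of the 375 genes tested from all lists and pairs together, 10 did so. Thrsp was among these, with Cpt1b, Atp6v0d2 and 7 skeletal muscle markers that were highest in HFD-veh liver. Atp6v0d2 was picked after its values were seen. With 1 library per organ and arm, these changes have no replicate check.

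Genes of triglyceride assembly were called in shares near those of all genes. Of 18 genes tested, 11 (61.1%) were called higher in WAT, against 50.5% of all genes, and 3 (16.7%) higher in liver, against 12.0%, with a median of 1.53, or 0.83 after rescaling, against 1.03 and 0.33 over all genes. Mogat2 and Mogat1, monoacylglycerol acyltransferases, had the largest differences toward WAT (5.36 and 4.07). Mogat2 had 3.71, 21.9 and 16.6 FPKM in WAT and at most 0.249 in liver. Agpat4 and Agpat9, acyltransferases of the glycerol phosphate route, followed at 4.03 and 3.23. Dgat2, which with Dgat1 adds the last fatty acid, had 685, 1359 and 1179 FPKM in WAT and 154, 233 and 264 in liver (2.28 ± 0.31, adjusted p = 0.000313). Dgat1 had 63.6, 73.4 and 73.5 in WAT and 11.2, 8.39 and 10.5 in liver, so the ratio of Dgat1 to Dgat2 differed little between the organs (log2 ratio -4.21 to -3.43 in WAT and -4.78 to -3.77 in liver).

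Lpin1 and Lpin2 encode lipins, the phosphatidate phosphatases of this route. Lpin1 had 88.4, 91.8 and 100.5 FPKM in WAT and 12.4, 44.7 and 110.4 in liver, where HFD-ncls was above all WAT libraries and NCD-veh below them all, and it was not called. Lpin2 had 2.90, 3.34 and 3.60 in WAT and 31, 50.5 and 44.3 in liver and was called higher in liver (-3.61 ± 0.20, adjusted p = 3.6e-06). Gyk, glycerol kinase, which lets a cell reuse free glycerol, was higher in liver at 19, 23.2 and 14.8 FPKM against 1.45, 4.08 and 3.40. Pck1, the enzyme of gluconeogenesis and glyceroneogenesis, had 836, 141 and 146 FPKM in WAT and 1048, 850.3 and 798 in liver. The organs were close in NCD-veh and apart in both HFD arms, with a call that was near the threshold (-1.79 ± 0.65, adjusted p = 0.0358). The call held without NCD-veh WAT and was lost when any of the other 5 libraries was left out, at -1.87 to -1.35.

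Genes of the lipid droplet and of lipolysis were mostly higher in WAT. Of 21 tested, 14 (66.7%) were called higher in WAT, against 50.5% of all genes, and 4 (19.0%) higher in liver, against 12.0%. Another 3 were not called, and the median was 2.51, or 1.80 after rescaling. Plin1, the perilipin of adipocyte droplets (mm9 chromosome 7, 86866050 to 86877662), had 660.3, 532 and 493 FPKM in WAT. In liver it was listed at 0 in NCD-veh and HFD-ncls and at 0.0246 in HFD-veh. Plin4 had 626, 541 and 521 in WAT and 3.38, 2.32 and 3.05 in liver (7.56 ± 0.16, adjusted p = 1.4e-07). Cidec, which fuses droplets into a large one (mm9 chromosome 6, 113374628 to 113385754), had 1685, 2142 and 1886 FPKM in WAT and 1.75, 5.88 and 2.43 in liver (9.29 ± 0.40, adjusted p = 1.23e-06). Its relative Cideb, known for its part in lipoprotein lipidation, was distributed the other way, with 239, 298 and 299.9 in liver and 0.0497, 0.152 and 0.0616 in WAT (-10.57 ± 0.22, adjusted p = 1.35e-07). Cidea was at 2.92, 3.99 and 4.18 in WAT.

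The lipases followed the droplet coat. Pnpla2, which encodes the triglyceride lipase ATGL, had 851, 678 and 599 FPKM in WAT and 40.6, 33.4 and 37.5 in liver (4.24 ± 0.17, adjusted p = 8.49e-07). Lipe, hormone-sensitive lipase, had 652, 551 and 519 and 5.79, 7.68 and 7.55 (6.34 ± 0.16, adjusted p = 2.09e-07). Mgll, monoglyceride lipase, had 404, 530.1 and 483 and 73.8, 81.2 and 101. Abhd5, the activator of ATGL, and Adrb3, the adrenergic receptor that starts lipolysis, were higher in WAT by 2.51 and 4.67. Pnpla3, a relative of ATGL with a well-known role in human fatty liver, was also higher in WAT, at 48.3, 58.4 and 101 FPKM against 0.0791, 0.140 and 0.486 in liver (7.81 ± 0.47, adjusted p = 5.21e-06). G0s2, an inhibitor of ATGL, was not called, with 192, 211 and 175 in WAT and 284, 173 and 51 in liver, where HFD-ncls was the lowest of all 6 libraries. Bscl2 (seipin), Hilpda and Fitm2 were called higher in WAT, by 2.35, 3.06 and 1.93.

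On the liver side were Cideb, Aqp9, Fitm1 and Plin5. Plin5, the perilipin of oxidative tissues, had 32.4, 17.3 and 23.5 FPKM in liver and 2.10, 3.25 and 3.49 in WAT (-2.99 ± 0.28, adjusted p = 4.17e-05). Fitm1, known mainly from muscle, had 34.2, 62.9 and 59.2 in liver and 0.495, 0.318 and 0.559 in WAT (-6.53 ± 0.28, adjusted p = 1.25e-06). All 3 liver libraries were above WAT, and the cells that the transcript came from were not tested. The glycerol channels split between the organs, Aqp7 at 54.4, 62.7 and 56.6 FPKM in WAT against 0.0309, 0.0460 and 0.0272 in liver, and Aqp9 at 142, 163 and 148 in liver against 0.753, 0.775 and 0.871 in WAT. Plin2, the perilipin found in most cells, had 95.2, 318 and 299 FPKM in WAT and 322, 228 and 176 in liver. Liver was above WAT in NCD-veh and below it in both HFD arms, and no difference was called (-0.17 ± 0.48, adjusted p = 0.748). Plin3 was at 0.93, under 2-fold.

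Uptake and binding of fatty acids used different family members in the organs. Of 23 genes, 11 (47.8%) were called higher in WAT, against 50.5% of all genes, and 8 (34.8%) higher in liver, against 12.0%. The median of 0.43 (-0.28 after rescaling) lay between both groups. Fabp4, the adipocyte fatty acid binding protein (mm9 chromosome 3, 10204347 to 10208576), had 12720.3, 12381 and 11212 FPKM in WAT and 4.29, 6.90 and 8.59 in liver (10.87 ± 0.25, adjusted p = 1.61e-07). Fabp1, its liver relative (mm9 chromosome 6, 71149821 to 71155017), had 3339, 7341 and 6690.4 in liver and 0, 4.69 and 19.9 in WAT (-11.33 ± 1.74, adjusted p = 0.000589). Lpl, lipoprotein lipase, had 2499, 2722 and 2701 in WAT and 2.89, 1.59 and 1.88 in liver (10.26 ± 0.21, adjusted p = 1.29e-07). Lipc, hepatic lipase, had 54.9, 57 and 49.2 in liver and 0.0255, 0 and 0.231 in WAT (-8.38 ± 0.42, adjusted p = 2.29e-06). Cav1 and Cav2, which build caveolae, were higher in WAT by 9.66 and 8.33. Slc27a2 and Slc27a5, fatty acid transport proteins with acyl-CoA and bile acid ligase activity, were called higher in liver (differences of -10.18 and -10.24), and Slc27a1 was higher in WAT (4.30).

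Such exchanges were examined in 18 pairs of related or functionally matched genes. In 11 pairs the first member was above the second in every WAT library and below it in every liver library. The ranges of the log2 ratio of the organs were apart in 17 pairs, all except Dgat1 and Dgat2. Pairs were chosen for their known organ preference, so this count is a description. For Fabp4 over Fabp1 the log2 ratio was 9.13 to 16.96 in WAT and -10.03 to -9.57 in liver, and for Aqp7 over Aqp9 it was 5.87 to 6.17 in WAT and -10.19 to -10.08 in liver. Genes of glucose use split in the same way. Pkm and Pklr, the pyruvate kinases, gave 8.02 to 10.09 in WAT and -5.02 to -3.05 in liver, and the glucose transporters Slc2a4 (GLUT4) and Slc2a2 (GLUT2) gave 5.89 to 6.90 in WAT and -9.05 to -6.67 in liver. For the lipid-sensing receptors Pparg and Ppara it was 5.69 to 6.10 in WAT and -3.56 to -2.55 in liver.

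Not every pair exchanged places. Scd1 was above Scd2 in both organs, Dgat2 above Dgat1, and Cpt1a above Cpt1b. Pnpla2 was above Pnpla3 in all 6 libraries, with a log2 ratio of 2.56 to 4.13 in WAT and 6.00 to 7.83 in liver. Acaca was above Acacb in WAT (1.64 to 2.54 in WAT and -0.68 to 0.39 in liver). Srebf1 over Mlxipl gave 1.36 to 2.0 in WAT and -2.19 to 0.35 in liver, and the NCD-veh liver library was the lowest of all 6.

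**Figure D3:**
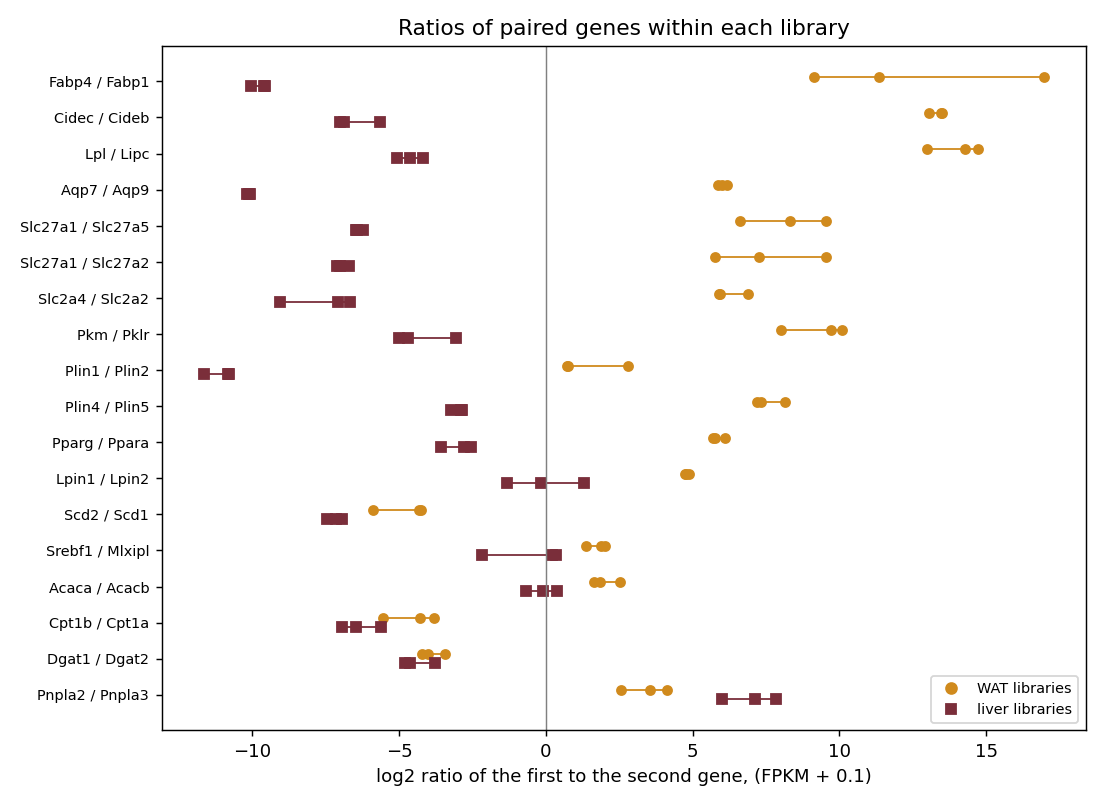
Log2 ratio of 2 paired genes within each library for 18 pairs, with circles for WAT, squares for liver and lines for the range of 3 libraries. For 11 pairs all WAT ratios are above 0 and all liver ratios below 0, and the widest WAT range, of Fabp4 over Fabp1 (9.13 to 16.96), follows the Fabp1 level of 0 FPKM in NCD-veh WAT.

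Lipoprotein export was the most liver-sided of the lipid lists. Of 24 genes tested, 20 (83.3%) were called higher in liver and 3 (12.5%) higher in WAT, with a median of -8.12, and the summed level of the list was 62242, 63032 and 69061 FPKM in liver and 2929.8, 1642 and 1911 in WAT. Apob, the structural protein of very-low-density lipoprotein (mm9 chromosome 12, 7984454 to 8023641), had 287, 357 and 167 FPKM in liver and 0.00320, 0.214 and 0.813 in WAT (-9.70 ± 0.73, adjusted p = 1.48e-05). Mttp, which loads triglyceride onto it, had 63.4, 88.2 and 75.6 in liver and 1.04, 0.842 and 0.909 in WAT (-6.19 ± 0.16, adjusted p = 2.31e-07). The WAT values of Mttp were even over the arms, whereas Apob was highest in HFD-ncls. Tm6sf2 and Sar1b, which act in lipidation and in transport of the particles, were called higher in liver (differences of -6.04 and -1.74).

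Among the apolipoproteins, Apoa2 had 15429.8, 16203 and 16882 FPKM in liver and 0.690, 8.10 and 38.4 in WAT, and Apoc3 had 4401, 4105 and 4929 and 0.274, 2.39 and 8.97. Apoa4, Apoa5, Apoc4, Apof, Apoh, Apom and Apon were below 10 FPKM in every WAT library and at 133 FPKM or more in every liver library. Apoe and Apoc1 stood apart from these. Apoe, which WAT also makes, had 2520.1, 1115 and 1265 FPKM in WAT and 13714, 14289 and 14408 in liver (-3.21 ± 0.33, adjusted p = 6.68e-05). Apoc1 had 206, 186 and 225 in WAT and 10619, 12035 and 12738 in liver. The 3 genes called higher in WAT were Pltp, the phospholipid transfer protein, at 3.13, the cholesterol efflux pump Abca1 at 1.98, and Apobec1, the editor of Apob mRNA, at 1.77. Lcat, Abcg5 and Abcg8 were called higher in liver. Gm6484 (Angptl8), an insulin-responsive inhibitor of lipoprotein lipase, had 3.71, 16.1 and 23.9 FPKM in WAT and 71.4, 52.9 and 18 in liver. It was lowest in NCD-veh among the WAT libraries and lowest in HFD-ncls among the liver libraries, and it was not called (-1.85 ± 0.76, adjusted p = 0.0554).

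Genes of fatty acid oxidation and ketogenesis were liver-sided or shared. Of 22 tested, 14 (63.6%) were called higher in liver, none higher in WAT and 8 were not called, with a median of -1.56. Among the largest differences were those of Cyp4a10 and Cyp4a14, which hydroxylate fatty acids at the far end, and of the ketone body gene Bdh1. Cyp4a10 had 438, 277 and 80.8 FPKM in liver and 0, 0.191 and 0.977 in WAT, and Cyp4a14 had 326, 233 and 32.6 and 0, 0.0590 and 0.972. Both were lowest in HFD-ncls among the liver libraries. The 2 genes are close relatives, between which reads can be split. Bdh1 had 45.3, 69.1 and 59.2 FPKM in liver and 0.136, 0.374 and 0.238 in WAT (-7.41 ± 0.28, adjusted p = 7.71e-07). The 8 genes not called, picked for that reason, were Cpt1b, Cpt2, Acadl, Acadm, Acads, Hadha, Hadhb and Hadh, which apart from the carnitine transferases Cpt1b and Cpt2 belong to the mitochondrial cycle present in most cells. After rescaling, Cpt2, Acads, Hadha and Hadh were called higher in liver. Cpt1a, the carnitine transferase that lets fatty acids into mitochondria, was higher in liver at 83.4, 112 and 93.5 FPKM against 28.2, 42.1 and 36.3.

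Stromal genes were at a much higher level in WAT than in liver. Of 35 matrix genes tested, 33 (94.3%) were called higher in WAT, with a median of 6.00, or 5.31 after rescaling. The largest differences were those of Mfap5 and Fbn1 of elastic microfibrils, Lox, which cross-links collagen, and Col6a2. Col6a2 had 129, 383 and 395 FPKM in WAT and 1.01, 0.978 and 1.72 in liver (7.70 ± 0.45, adjusted p = 4.64e-06), and NCD-veh was the lowest of the WAT libraries. Mfap5 had 69.7, 47.7 and 54.8 in WAT and 0, 0.0338 and 0.0649 in liver, where NCD-veh was listed at 0. Fbn1 had 79.9, 53.2 and 46.4 in WAT and 0.177, 0.130 and 0.129 in liver (7.90 ± 0.23, adjusted p = 3.09e-07). Col18a1, which gives endostatin, was the 1 gene called higher in liver (-1.47 ± 0.19, adjusted p = 0.000215), at 188, 131 and 152 FPKM against 46.3, 64.9 and 58.2 in WAT. Fn1, fibronectin, which hepatocytes secrete into plasma, was the 1 gene not called, at 199.7, 179.5 and 173 in WAT and 189, 145 and 154 in liver, and was picked for that reason.

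Cell type markers of the stroma gave the same direction, with the liver's own cell types as exceptions. All 13 fibroblast and preadipocyte markers tested were called higher in WAT (median 6.22), led by Gsn, Pi16, Cd248 and Vim. Gsn, gelsolin, had 3974, 1894 and 2024 FPKM in WAT and 6.54, 6.28 and 12.3 in liver. All 11 endothelial markers were called higher in WAT (median 4.20), led by Cdh5, Emcn, Pecam1 and Vwf. Cdh5, VE-cadherin, had 54.8, 92.3 and 89.4 FPKM in WAT and 3.47, 2.98 and 2.95 in liver. All 9 mesothelial markers, of the cells that line the surface of organs, were also called higher in WAT (median 4.45), with a sum of 289, 115 and 128 FPKM in WAT and 4.37, 3.44 and 9.65 in liver.

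The 8 hepatic stellate cell markers tested had 4 calls (50.0%) toward WAT, against 50.5% of all genes, and 3 (37.5%) toward liver, against 12.0%. Their median was 0.24 and became -0.48 after rescaling. Lrat, which esterifies retinol for storage, had 0.979, 2.46 and 1.51 FPKM in liver and 0.0596, 0.0175 and 0.0385 in WAT (-3.58 ± 0.37, adjusted p = 6.7e-05). Colec11 and Reln were also called higher in liver (-3.67 and -3.25), and Rgs5, Des, Hgf and Ecm1 were called higher in WAT. The call of Ecm1 (1.09) was lost without NCD-veh WAT (0.94) or NCD-veh liver (0.90) and after rescaling. The 10 markers of liver sinusoidal endothelium had 4 calls (40.0%) each way, so that the share toward liver was again above the 12.0% of all genes. Clec4g, a lectin of sinusoidal cells, had 23.8, 25.2 and 19.5 FPKM in liver and 0.170, 0.175 and 0.384 in WAT (-6.11 ± 0.26, adjusted p = 1.18e-06). Oit3, Stab2 and Dnase1l3 were called higher in liver too, while Mrc1, Lyve1, Stab1 and Fcgr2b, which macrophages or lymphatic vessels also express, were called higher in WAT.

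Immune genes were mostly higher in WAT. Of 27 macrophage markers tested, 25 (92.6%) were called higher in WAT, with a median of 5.27, or 4.55 after rescaling. Their summed level was 2117, 3078 and 3448 FPKM in WAT and 116, 84.7 and 73.5 in liver. Within arms the median difference was 4.17, 5.16 and 5.92. Besides Retnla, the largest differences were those of Gpnmb, Mmp12 and Ccl8. Gpnmb, a glycoprotein of lipid-laden macrophages (mm9 chromosome 6, 48986517 to 49020928), had 4.42, 106 and 153 FPKM in WAT and at most 0.0653 in liver (8.32 ± 1.23, adjusted p = 0.000473). Mmp12, macrophage elastase, had 3.71, 66.1 and 95.7 in WAT and at most 0.0920 in liver. The chemokine gene Ccl8 had 7.84, 44.6 and 46.1 in WAT and 0, 0.266 and 0 in liver. All 3 were lowest in NCD-veh among the WAT libraries, while Retnla was at a similar level in each.

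There were 2 exceptions. Spp1, osteopontin, which bile duct cells also make, was called higher in liver, at 26.8, 22.6 and 21.2 FPKM against 0.432, 4.26 and 12.5 in WAT (-2.93 ± 1.02, adjusted p = 0.0292). The call was lost when any 1 of the 3 liver libraries was left out, at -3.00 to -2.83. The difference within arms was -5.66 in NCD-veh and -0.76 in HFD-ncls. Atp6v0d2, a proton pump subunit of osteoclasts and lipid-laden macrophages, was picked because it was not called, and had 0.933, 32.3 and 37.8 FPKM in WAT and 2.99, 1.54 and 1.24 in liver. It was lower in WAT than in liver in NCD-veh and higher in both HFD arms.

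Kupffer cell markers went the other way for 5 (55.6%) of 9 genes tested, against 12.0% of all genes, and 2 (22.2%) were called higher in WAT, against 50.5%. Clec4f, a lectin restricted to Kupffer cells (mm9 chromosome 6, 83594536 to 83606181), had 22.9, 16.3 and 12.2 FPKM in liver and 0, 0.0205 and 0.0901 in WAT (-6.98 ± 0.33, adjusted p = 1.7e-06). Cd5l, a scavenger receptor protein, had 26.9, 13.4 and 9.99 in liver and 0.693, 0.442 and 1.03 in WAT (-4.30 ± 0.41, adjusted p = 4.76e-05). Slc40a1 (ferroportin) and C6 were called higher in liver, and Folr2 and Cdh5 higher in WAT. In liver both Clec4f and Cd5l were highest in NCD-veh.

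**Figure D4:**
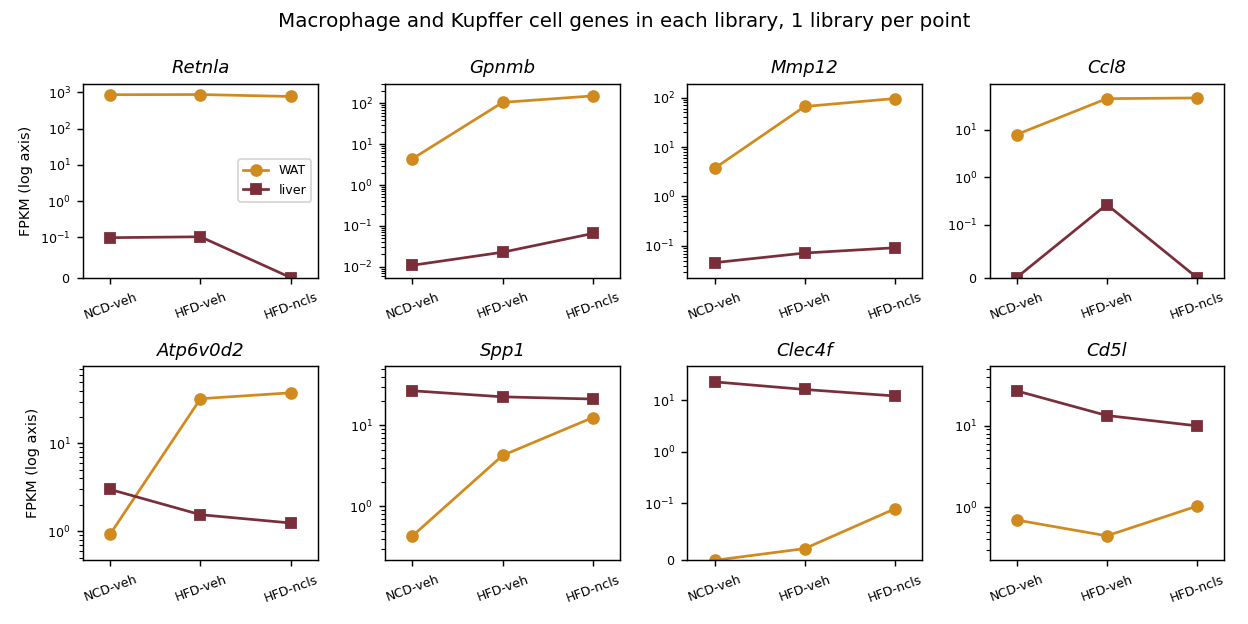
FPKM of 6 macrophage genes and of the Kupffer cell genes Clec4f and Cd5l in the 3 WAT (circles) and 3 liver libraries (squares), on log axes that are linear below 0.1 where a value is 0, with 1 library per point. Gpnmb, Mmp12, Ccl8, Atp6v0d2 and Spp1 were lowest in NCD-veh among the WAT libraries, while Clec4f and Cd5l stayed at 1.03 FPKM or less in WAT.

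Lymphocyte genes were low in both organs. Of 24 T, B and NK cell markers, 12 reached 1 FPKM in at least 1 library and were tested. Of these, 11 (91.7%) were called higher in WAT, against 50.5% of all genes, with a median of 1.99. Passing that filter depended on the level in WAT for most of them. Ptprc (CD45), which all leukocytes carry, had 11.4, 15 and 17.3 FPKM in WAT and 0.629, 0.722 and 0.409 in liver (4.42 ± 0.24, adjusted p = 3.37e-06). Cd2, of T and NK cells, had 5.96, 2.97 and 2.95 and 0.249, 0.174 and 0.208, and Cd79b, of B cells, had 4.05, 1.40 and 3.39 and 0.432, 0.533 and 0.197, with HFD-veh the lowest of the WAT libraries. All 10 genes of MHC class II were called higher in WAT (median 4.27), and H2-Aa had 363, 469 and 493 FPKM in WAT and 14.8, 18.2 and 22.5 in liver. Among granulocyte and mast cell markers, 7 of 8 tested (87.5%) were called higher in WAT, against 50.5% of all genes. Here too most passed the filter through their level in WAT. The mast cell protease genes Tpsb2, Mcpt4, Cma1 and Cpa3 were at 3.21 to 13.5 FPKM in WAT, highest in NCD-veh, and at most 0.0519 in liver.

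Complement genes went both ways. Of 26 genes, 15 (57.7%) were called higher in liver, against 12.0% of all genes, and 7 (26.9%) higher in WAT, against 50.5%, with a median of -1.37. C9, C8a and Hc (C5) of the terminal complex and Mbl2 of the lectin pathway had the largest differences toward liver. C9 had 249, 192 and 210.5 FPKM in liver and at most 0.19 in WAT. Cfd, factor D or adipsin, which adipocytes secrete, had 8163, 653 and 753 FPKM in WAT and 0.163, 10.2 and 5.71 in liver. It was far higher in NCD-veh than in either HFD library of WAT, and lowest in NCD-veh among the liver libraries (9.31 ± 1.52, adjusted p = 0.000832). The receptor genes C5ar1 and C3ar1 and the C1q chain gene C1qb, all of myeloid cells, were called higher in WAT (5.67, 5.12 and 3.27).

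Markers of other cells that could be present in either organ were examined too. Of 16 epididymis markers, 13 to 15 were listed at 0 in the WAT libraries, and the list summed to 3.09 FPKM in NCD-veh WAT, nearly all of it from Pate4. Pate4 and, of the exocrine pancreas markers, Cela1 are named as the only members tested, and neither was called. Cela1 was at 5.58, 27.1 and 22.3 FPKM in WAT and 4.85, 11.3 and 12.3 in liver. Among brown adipocyte markers, 4 of 6 tested (66.7%) were called higher in WAT, against 50.5% of all genes. Elovl3 (16.7%) was called higher in liver, against 12.0%. These shares are near those of all genes. Ucp1, which brown fat uses to make heat, had 2.86, 2.38 and 3.92 FPKM in WAT. Of the red blood cell markers, Hbb-b1, a beta-globin gene with a close copy, had 569, 483 and 474 FPKM in WAT and 260.4, 114 and 145 in liver. It was called higher in WAT (1.64, a call lost after rescaling). Alas2 was called higher in liver (-2.16), so the 2 markers tested went opposite ways.

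Liver transcripts were present in WAT at a level that differed by arm. The 163 genes examined had a mean of at least 100 FPKM in liver and under 0.1% of the liver level in NCD-veh WAT, so that a low value in NCD-veh WAT is set by their choice. Relative to the liver library of the same arm, their median level in WAT was 0.0684% in HFD-veh (quartiles 0.0509% and 0.0989%) and 0.257% in HFD-ncls (0.189% and 0.321%). Of the 163 genes, 82 were listed at 0 in NCD-veh WAT, 5 in HFD-veh and none in HFD-ncls, and 160 had a higher level in WAT under HFD-ncls than under HFD-veh. Their summed level in WAT was 13.8, 135 and 436 FPKM.

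Of the 8 hepatocyte markers with the highest level in HFD-ncls WAT, Trf and Cyp2e1 were highest in NCD-veh WAT and came to 9.58% to 28.0% of the liver level. Alb, albumin, was next, with 4.79, 25.7 and 94.1 FPKM in WAT, and has no value in liver. The other 5, Serpina1c, Mup3, Serpina1a, Ttr and Ahsg, were at 0.215% to 0.265% of the liver level in HFD-ncls WAT. Serpina1c, an alpha-1-antitrypsin gene of a family with close copies, had 1.33, 5.12 and 16.1 FPKM in WAT and 6163, 6055 and 6387 in liver. Ttr, transthyretin, had 0, 2.66 and 10.5 in WAT and 3989, 4060.3 and 4314 in liver. Over the whole marker list, 38 of 41 genes with values in both organs were highest in HFD-ncls WAT and 36 were lowest in NCD-veh WAT, where 18 were at 0, and the sum of the list with Alb, which Trf and Cyp2e1 dominate, was 2277, 998 and 1136 FPKM. The origin of these transcripts was not tested.

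Most calls between organs were also made without HFD-ncls WAT. Of the 1569 genes called higher in liver, 1545 were called without that library, and of the 6624 called higher in WAT, 6355 were. For the 163 genes the median difference was -9.87 with all 6 libraries and -10.51 without HFD-ncls WAT, and within arms it was -11.29, -10.01 and -8.43. The 18 adipocyte markers summed to 140.0, 1024 and 1708 FPKM in liver, most of it from Thrsp in both HFD arms, with 4, 4 and 5 of them at 0. Several were lowest in NCD-veh liver, among them Slc2a4 at 0.0149, 0.888 and 0.886 FPKM and Cidec and Cfd with the liver values given above. Other members did not share this order. Plin4 and Pnpla2 were highest in NCD-veh liver, Adrb3 was lowest in HFD-veh liver, and Adipoq, Lep and Retn were at 0 in every liver library. The origin of these transcripts in liver was not tested.

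**Figure D5:**
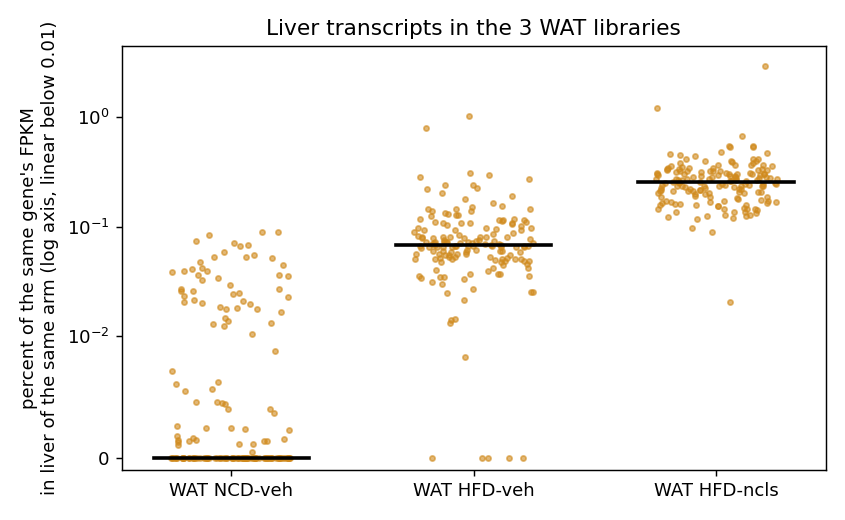
Level of 163 liver genes in each WAT library as a percent of the same gene's FPKM in liver of the same arm (log axis, linear below 0.01%), with 1 point per gene and bars at the median. The medians were 0.0684% in HFD-veh and 0.257% in HFD-ncls, and 82 of the genes were at 0 in NCD-veh, the library by which they were chosen.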

How the data were processed

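RNA from WAT and liver was sequenced as 1 library per organ and arm, the arms being NCD-veh, HFD-veh, HFD-ncls. The authors aligned Illumina reads to mm9 with TopHat and deposited the FPKM of each RefSeq gene from Cufflinks, with 1 value per gene symbol and library. FPKM from Cufflinks divides reads among copies of a gene by estimate, and no scaling between libraries beyond depth is stated, so that a few abundant transcripts in 1 organ lower the FPKM of all other genes there. Cufflinks' version and the use of strand were not given in the sources used here.

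Groups were taken from the sample labels. Of 22276 symbols, 78 without a value in at least 1 of the 6 libraries were left out, among them Alb, which has none in liver, and Apoc2. The 13120 genes with at least 1 FPKM in at least 1 of the 6 libraries were tested on log2(FPKM + 0.1) with limma 3.58.1 (trended empirical Bayes, R 4.3.3), with organ as the only term and the Benjamini-Hochberg adjustment over all of them. The fit was tested on simulated data. Other values were computed with Python 3.11.15, numpy 2.4.6 and pandas 2.3.3, and plots were drawn with matplotlib 3.10.9.

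The 25 gene lists (448 symbols, 442 matched) and 18 pairs, like the comparison itself, were chosen with earlier results of these data known. Of the 428 different list genes matched, 369 were tested. Named were the genes of the pairs, in each list up to 4 called genes with the largest difference in each direction, any member of the lists of fatty acid synthesis, lipid droplet and lipolysis, and lipoprotein export, the 5 genes with the largest difference in each direction, and the 8 hepatocyte markers highest in HFD-ncls WAT. Some genes and pairs that this rule takes in are not reported here.

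Depth was estimated from genes with 1 annotated transcript of over 1500 bases and 0.001 to 0.05 FPKM, as the most common size of the step of 1 fragment, with 150 bases taken off the length. No interval or count test rests on it. Positions are from GENCODE M1 on mm9, which is the build of the files. Promoters are those of a RefSeq table on GRCm38.p6, matched by symbol to 9688 of the genes tested, and were not used with mm9 positions.

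Alternatives were a pseudocount of 1 or 0.01, no filter, at least 5 FPKM, rescaling by the median ratio, the arm as a block, and leaving out each library. Leaving out HFD-ncls WAT and HFD-veh liver together was added after the data were seen. For the liver transcripts in WAT, limits of 0.02% and 1% in place of 0.1% and the mean of the 3 liver libraries were tried.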

Additional observations from a re-analysis of the deposited data

Results flagged for a closer look

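For 6 genes of the lists that reached 1 FPKM in at least 1 library of each organ, the HFD-veh level was at least 2-fold above the NCD-veh level in 1 organ and at least 2-fold below it in the other. With 1 library per organ and arm, the difference between the organs was not tested in any of them. Each value below is HFD-veh minus NCD-veh on log2(FPKM + 0.1).

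Cfd, which encodes adipsin, was at -3.64 in WAT and 5.29 in liver, a difference of -8.93 between the organs, and its liver level was 10.2 FPKM at most. Acaca, of fatty acid synthesis, was at -1.22 in WAT and 1.44 in liver, a difference of -2.65. Mogat1, of triglyceride assembly, was at -1.49 in WAT and 1.89 in liver, a difference of -3.38, with a liver level of 1.14 FPKM at most.

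S100a8, of neutrophils and activated myeloid cells, was at 3.02 in WAT and -1.33 in liver, a difference of 4.36. Its level was 4.19, 34.7 and 35.5 FPKM in WAT and 1.24, 0.433 and 1.04 in liver. Hpx, hemopexin, was at 3.41 in WAT and -1.81 in liver, a difference of 5.22, and Ambp, alpha-1-microglobulin, was at 3.29 in WAT and -1.11 in liver, a difference of 4.39. Both are hepatocyte markers, with at most 4.89 FPKM of Hpx and 2.16 of Ambp in any WAT library. The WAT values compared, NCD-veh and HFD-veh, were 0.0686 and 1.69 FPKM for Hpx and 0 and 0.875 for Ambp. Ambp thus reached 1 FPKM in WAT only in HFD-ncls, and the size of both WAT changes depends on the 0.1 added to each value. Both were in WAT lowest in NCD-veh and highest in HFD-ncls, as were most liver transcripts there.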

How the results depend on the processing

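Counts of genes called moved by over 1.5 times only for genes higher in liver after rescaling by the median ratio, to 2386 from 1569. With 1 library left out, 6455 to 6612 genes were called higher in WAT and 1528 to 1581 higher in liver. Among the list medians, that of fatty acid synthesis became -0.30 after rescaling and ranged from -0.42 (without NCD-veh liver) to 0.94 with 1 library left out. Fatty acid uptake and binding became -0.28 after rescaling, and was 0.40 with a pseudocount of 1, 0.38 with at least 5 FPKM, 0.36 to 0.55 with 1 library left out and 0.29 without HFD-ncls WAT and HFD-veh liver. After rescaling, triglyceride assembly was at 0.83, lipid droplet and lipolysis at 1.80, fatty acid oxidation at -2.29 and matrix at 5.31. With a pseudocount of 1, lipid droplet and lipolysis was at 2.34, lipoprotein export at -6.77, matrix at 4.99, macrophage markers at 3.93 and T, B and NK cell markers at 0.93. Lipoprotein export was at -8.83 with a pseudocount of 0.01. With at least 5 FPKM, fatty acid oxidation was at -1.68 and T, B and NK cell markers at 4.03, since few of the latter reach that level. Fatty acid oxidation was at -1.40 without HFD-ncls WAT and HFD-veh liver. With 1 library left out, triglyceride assembly ranged from 1.40 to 1.90 and fatty acid oxidation from -1.75 to -1.44. Limits of 0.02% and 1% gave 0.239% and 0.278% for the liver transcripts in HFD-ncls WAT, and the mean of the liver libraries 0.247%.

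Of 176 genes named and tested, 164 kept their direction under every alternative, and of 152 called, 147 kept the call wherever they were tested. The exceptions were Pck1, Spp1, Ecm1, Hbb-b1 and Fasn. The calls of Pck1 and Spp1 were lost also without the filter. Differences that changed sign were not called. After rescaling they were -0.43 for Acacb, -0.29 for Acadl, -0.39 for Acadm, -0.31 for Cpt1b, -0.53 for Fn1, -0.22 for G0s2, -0.41 for Hadhb, -0.38 for Slc25a1, -0.22 for Srebf1 and -0.19 for Thrsp. With 1 library left out they ranged from -0.47 to 0.83 for Acacb, -0.85 to 0.0587 for Acss2, -0.0398 to 1.01 for Cpt1b, -0.20 to 1.03 for G0s2, -0.48 to 0.39 for Plin2, -0.37 to 1.05 for Srebf1 and -1.27 to 1.65 for Thrsp, and Cpt1b was at -0.22 without HFD-ncls WAT and HFD-veh liver. A call was gained by Atp6v0d2, Cela1, Cpt1b and Plin3 without NCD-veh WAT, Elovl6 without NCD-veh liver, Lpin1 and Gm6484 without HFD-ncls liver, Gm6484 without HFD-ncls WAT, and Acads, Cpt2, Elovl6, Gm6484, Hadh and Hadha after rescaling. The arm as a replicate block gave 6633 and 1569 genes called and changed no call of a named gene. Its pairing is that of diet and treatment, and whether the 2 organs of an arm came from the same mice was not stated. With 1 library per organ and arm, the changes between arms have no error, and levels under about 0.1 FPKM rest on few fragments.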

Other observations

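Among the 45 genes at least 2-fold higher in WAT in 1 arm and at least 2-fold higher in liver in another, several belong to groups not described above. The genes in this section were chosen after their values were seen, and no test was made. Saa3, a serum amyloid of inflamed tissue, had 7.56, 61.8 and 132 FPKM in WAT and 419, 7.67 and 12 in liver, with its highest level in NCD-veh liver. Its relatives Saa1 and Saa2, which are not among the 45, were also highest in NCD-veh liver. Saa1 had 7071, 132 and 299 FPKM in liver, and Saa2 had 6590, 53.7 and 118. The metallothionein genes Mt1 and Mt2, which bind zinc and respond to stress hormones, were also highest in NCD-veh liver. Mt1 had 343, 554 and 568 FPKM in WAT and 1431, 199.5 and 227 in liver, and Mt2 had 161, 312 and 260.3 and 584, 45.5 and 48.8.

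Genes of the circadian clock were also among them. Dbp, a clock output factor, had 45.7, 18.6 and 31.5 FPKM in WAT and 3.87, 54.8 and 37.7 in liver. Arntl, which encodes BMAL1 and peaks in the opposite phase to Dbp, had 2.54, 3.23 and 2.15 in WAT and 5.61, 0.457 and 1.52 in liver. Wee1, a cell cycle kinase under clock control, had 1.92, 2.34 and 5.05 in WAT and 0.632, 5.52 and 4.10 in liver. In NCD-veh liver Dbp was lowest and Arntl highest of the 3 liver libraries. Per3, a clock gene that is not among the 45, had 9.83, 5.53 and 9.90 FPKM in WAT and 0.965, 6.09 and 5.27 in liver. Other clock genes outside the 45 went different ways in liver. Per2, at 1.15, 5.89 and 7.39 FPKM, and Tef, at 16.5, 36.1 and 33.8, were also lowest in NCD-veh. Per1 differed less, at 6.26, 7.64 and 9.78 FPKM. Nr1d1 was instead highest in NCD-veh liver, at 19.5, 16.2 and 9.14 FPKM. Whether the clock genes shifted together was not tested. The time of day at which tissues were taken was not given in the sources used here.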
